A study of Rattus norvegicus with 2 samples.

Results

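A group of 110 probes, 0.545% of the 20174 gene probes on a rat oligonucleotide array, gave more signal in RNA of the lateral than of the ventral prostate of saline-treated TRAP rats. The rats were male and carried a transgene, SV40 T antigen under the probasin promoter, that acts in prostate epithelium and gives rise to prostate tumours. From 6 weeks of age they received saline or OBP-801, an inhibitor of histone deacetylases, intravenously 2 times a week for 8 weeks on a control diet. The dose was 1 mg/kg in the treatment protocol while other labels give the milligrams alone. Prostate cancer tissue of each lobe was hybridised to 1 array. Cy5 carried the saline RNA and Cy3 the OBP-801 RNA of that lobe, so 4 RNA samples were measured. How many rats contributed to an RNA sample is not stated in the sources used here.

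The members were chosen from the saline signals themselves. Net signal is the spot median less the trimmed mean of the blank spots of that array and dye. The lobe difference is the log2 ratio of lateral over ventral net Cy5 signal, with signals under 8 units set to 8, centred on the median of 9013 probes with at least 30 net units in all 4 channels. Members had a difference of at least 1 (2-fold) and at least 100 net units in lateral saline RNA. They made 1.75% of the 6269 probes that bright. Because the rule used these values, the saline difference is a description and carries no test.

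The rat prostate is built of paired ventral, lateral and dorsal lobes whose glands secrete different mixtures of proteins, and the lateral lobe is known for its high zinc content. These secretory programmes depend on androgens acting through the androgen receptor. Histone deacetylases take acetyl groups off histones, and their inhibitors raise the transcription of some genes and lower that of others. Probes are identified by Ensembl rat gene ID, and 0 of the 20174 IDs could be paired with a symbol in the tables used here. No role is therefore given for any member, no lobe or cell type marker could be looked up to check the labelled tissue, and no gene list was evaluated. The 4 members with the largest ratios of OBP-801 to saline in the lateral prostate, 2 higher and 2 lower, are named by ID. The others are called by their rank in the saline lobe difference, with probe 1 having the largest.

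With 1 array per lobe, no difference below has a replicate or a test across animals, and lobe and array cannot be told apart. Dye and treatment cannot be told apart either, since saline was in Cy5 on both arrays. Fewer cells of a type and less RNA per cell also cannot be told apart in tissue RNA. The measurable error was technical. Over 24 spots of each of 2 positive controls, the lobe difference had an SD of 0.14 for both controls with saline RNA, and of 0.08 and 0.09 with OBP-801 RNA. The mean lobe difference of these controls was 0.58 and -0.03 with saline RNA, and with OBP-801 RNA 0.80 and -0.09, so 1 of the 2 controls was itself brighter on the lateral array. Between 73.5% and 81.7% of gene probes were well above background, that is more than 2 blank SDs above the blanks, in each of the 4 channels. All 110 members passed this limit in lateral saline RNA and in both OBP-801 RNAs, and 107 of them in ventral saline RNA.

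In saline RNA the lateral prostate had a median of 292 net units over the members (range 104 to 22917) and the ventral prostate one of 87.6 units (range 0.165 to 8173). The median lobe difference was 2.83-fold, and the quartiles lay at 1.18 and 2.01 on the log2 scale. Many members lay near the threshold, with 55 of the 110 below 1.5 on the log2 scale, while 28 reached at least 2 (log2), 12 at least 4 and 3 at least 8. In lateral saline RNA 40 members had between 100 and 200 net units, 24 had at least 1000 and 3 at least 10000. The members held 1.95% of the net signal of all gene probes in lateral saline RNA and 0.505% in ventral saline RNA. In OBP-801 RNA their share was 3.18% in the lateral and 0.741% in the ventral prostate, and 2.18% and 0.568% without the 2 probes at the detector ceiling of the lateral array.

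**Figure D1:**
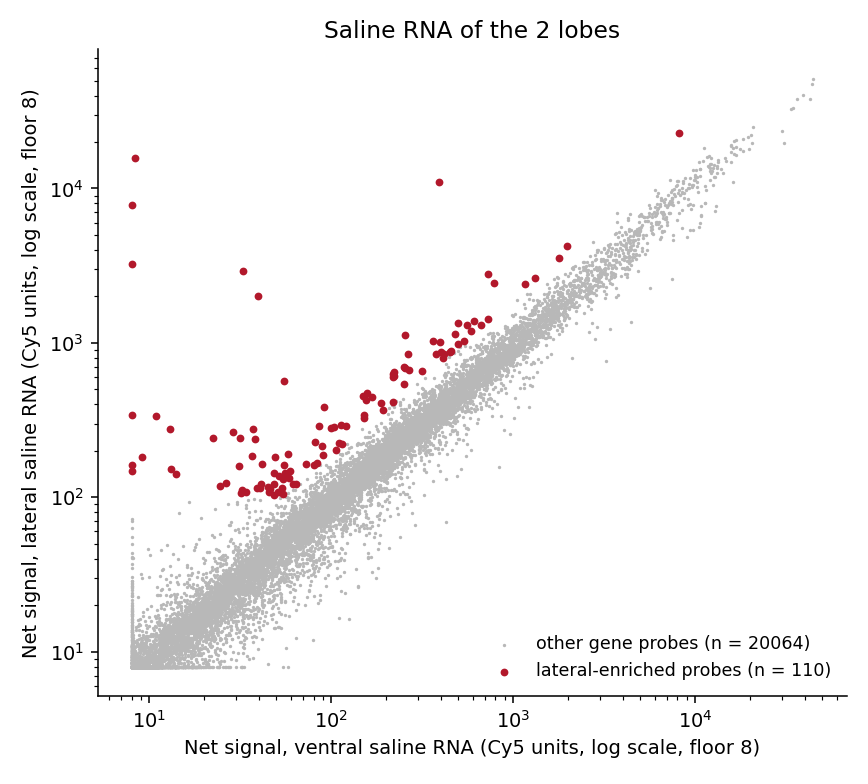
Net Cy5 signal of each gene probe in ventral (x) and lateral (y) saline RNA, in units on log axes with signals under 8 drawn at 8. The 110 lateral-enriched probes (red) were chosen for lying above the main band of the other 20064 probes (grey), and a few stand far to the left, near the floor in the ventral lobe.

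The extreme members were very dim in the ventral lobe. Probe 1 gave 8.30 net units with ventral and 15715 with lateral saline RNA. With OBP-801 RNA it gave 1032 units in the ventral prostate and 65471 units, the detector ceiling, in the lateral prostate. Probe 2 gave 0.868 and 7780 units with ventral and lateral saline RNA, and 280 and 49586 units in ventral and lateral OBP-801 RNA. Probe 3 had 0.165 and 3242 units in saline RNA and 195 and 16383 units in OBP-801 RNA, in the same order of lobes. All of these were far brighter in the lateral lobe under both treatments. Ventral saline RNA gave no signal well above background for probes 2, 3 and 6, so their difference is only bounded. After normexp correction, loess and quantile normalization of average intensities between arrays (Aquantile), lateral saline signal was at least 179-fold, at least 75.8-fold and at least 9.37-fold higher for them. Each bound sets the lateral signal against the higher of the ventral probe's own signal and the lowest signal well above background. In all, 5 members had a ventral saline signal under the floor of 8 units, and their log2 difference reflects that floor.

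Probe 5 had 39.6 and 2006 net units in ventral and lateral saline RNA and 364 and 7802 units in OBP-801 RNA. Probe 8 was bright in both lobes, with 393 and 10977 units in saline RNA and 1539 and 21422 units in OBP-801 RNA. The brightest member in lateral saline RNA was probe 47. It had 8173 and 22917 units in ventral and lateral saline RNA and 22204 and 65471 units, again the ceiling, in OBP-801 RNA. Its lobe difference was moderate, at 1.57 on the log2 scale in saline RNA, so high abundance and strong lobe difference did not go together in this probe.

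Whether the lateral excess was also present after OBP-801 could be read in the Cy3 channel, which the rule did not use to pick members, although it comes from the same arrays and spots. All 110 members had a lobe difference above 0 in OBP-801 RNA, computed as in the rule, and 99 of them (90.0%) were at least 2-fold higher in the lateral lobe. Of the 108 members with at least 100 net units in lateral OBP-801 RNA, 97 (89.8%) were at least 2-fold higher, against a background of 2.70% (214 of 7938 gene probes that bright). The median member difference was 1.64 on the log2 scale, a 3.11-fold difference, while the median of all probes that bright was 0.02. These 97 members made 45.3% of the 214 probes and 88.2% of the members. Of the other 117 probes, 70 had under 100 net units in lateral saline RNA. Their saline difference had a median of 0.93 and ranged from 0.09 to 3.26, all on the lateral side.

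Across the 110 members the saline and OBP-801 differences correlated with a Pearson r of 0.82, and over the 98 members with a saline difference below 4 the r was also 0.82. The points share arrays and spots and the correlation is a description. The OBP-801 difference was the larger for 64 members and not for 46, and for probe 1, counted among the latter, it is a lower bound because of the ceiling. Among the 12 members with a saline difference of at least 4 it was the larger for 2, a direction that choosing by the saline difference favours in advance. In 11 of these 12 members the ventral net signal was a greater percentage of the lateral one in OBP-801 RNA than in saline RNA, also with undetected ventral saline signals set at the detection limit. The remaining one, probe 1, had only an upper bound in OBP-801 RNA. The same held for 7 of the 16 members with a saline difference from 2 to 4. It held for 11 of the 27 from 1.5 to 2 and 28 of the 55 below that. These percentages are of net signals not centred between the arrays. With centring, the OBP-801 difference was not the larger for 7, 8 and 21 members in these ranges, in the same order. For probe 5 the ventral signal was 1.98% of the lateral signal with saline and 4.67% with OBP-801. For probe 2 it was at most 0.0209%, the percentage at the detection limit, with saline and 0.565% with OBP-801, and for probe 3 at most 0.0501% and 1.19%. For probe 1 it was 0.0528% with saline and at most 1.58% with OBP-801, since the lateral signal was at the ceiling. Whether lateral tissue entered the ventral OBP-801 sample was not tested. Among the 28 members with a difference of 2 or more, the gain in the other direction was greatest for probe 15, whose difference was 3.44 with saline and 5.06 with OBP-801.

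**Figure D2:**
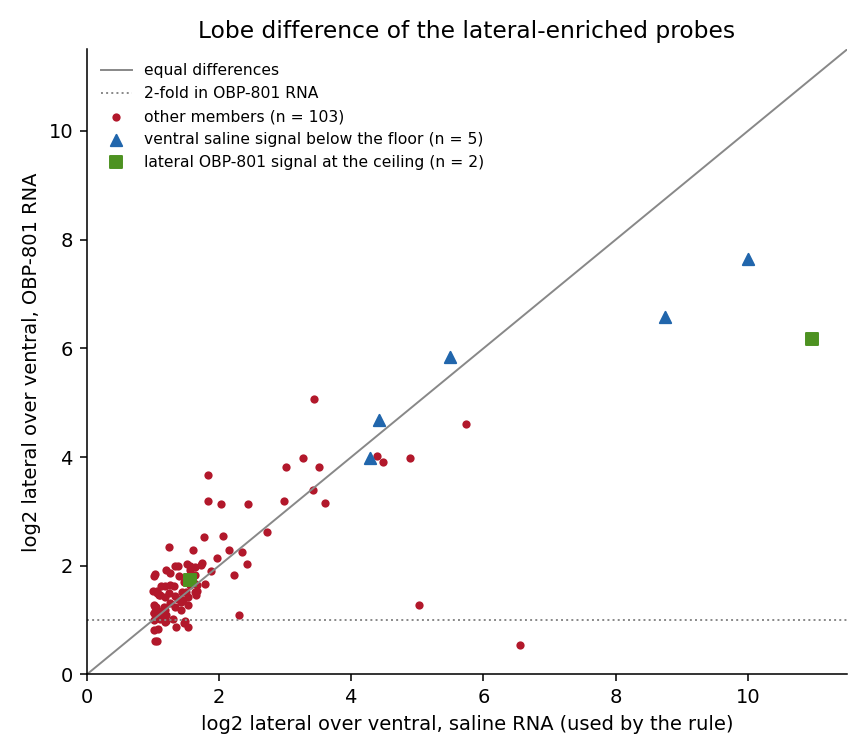
The log2 ratio of lateral over ventral net signal of the 110 members with saline (x, used by the rule) and with OBP-801 (y). The line marks equal differences and the dotted line 2-fold. All members lie above 0 on the y axis and 99 reach 2-fold. Triangles mark 5 members whose ventral saline signal was under the floor, and squares mark 2 members at the detector ceiling in lateral OBP-801 RNA.

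Of the 11 members under 2-fold in OBP-801 RNA, 10 had been close to the threshold in saline RNA, with differences below 1.6 on the log2 scale. The exception was probe 4, whose difference was 6.56 with saline and 0.54 with OBP-801. Probe 7 stayed just above 2-fold, with a difference of 5.02 with saline and 1.27 with OBP-801.

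The ratio of OBP-801 to saline RNA was then taken within each lobe, after normexp correction with an offset of 50 and loess. The offset pulls the ratios of dim probes towards 0. In the lateral prostate 17 of the 110 members (15.5%) had a ratio of at least 2-fold in favour of OBP-801, against 0.686% of the 6269 probes with at least 100 net units in lateral saline RNA and 0.375% of all detected probes. At least 2-fold lower were 2 members (1.82%), against 0.893% of probes that bright and 0.375% of all detected probes. The median log2 ratio of the members was 0.56, a 1.47-fold higher level, and that of the probes that bright was 0.00. The ratio was above 0 for 98 members (89.1%), against 49.8% of probes that bright. At 1.5-fold, 53 members (48.2%) were higher, against 4.15%, and 5 (4.55%) lower, against 4.43%. The members supplied 17 (39.5%) of the 43 probes of that brightness with a ratio of at least 2-fold.

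This ratio shares the lateral saline signal with the rule. Choosing probes that were bright in lateral saline RNA favours a low ratio there. By brightness, the median lateral log2 ratio was 0.57 for the 40 members with 100 to 200 net units in lateral saline RNA, 0.50 for 28 with 200 to 500, 0.64 for 29 with 500 to 1500 and 0.66 for 13 above that. The medians over all probes in the same ranges were 0.03, 0.00, -0.03 and -0.05. By size of the saline lobe difference, the median ratio was 0.50 for the 55 members below 1.5 (log2) and 0.55 for 27 from 1.5 to 2. It was 0.71 for 16 from 2 to 4 and 0.73 for the 12 above. The ratio was above 0 for 50, 26, 14 and 8 members of these ranges, and in the last it ran from -2.99 to 1.52.

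In the ventral prostate 11 of the 110 members had a ratio of at least 2-fold in favour of OBP-801, against 0.782% of the probes with at least 100 net units in lateral saline RNA and 0.391% of all detected probes. None was at least 2-fold lower, against 0.367% and 0.146%. The median log2 ratio was 0.32, against 0.01 for probes that bright, and 90 members (81.8%) were above 0, against 51.3%. At 1.5-fold, 34 members (30.9%) were higher, against 4.63%, and 1 (0.909%) lower, against 3.80%. The choice of members by a low ventral saline signal favours a high ventral ratio. Without loess, with median centring and the same offset, the ventral median lay 0.13 above that of probes that bright, less than the 0.31 found with loess. The ventral ratio was at least 4.07-fold for probe 2, at least 3.22-fold for probe 3 and at least 1.35-fold for probe 6, whose saline signal was not well above background. Probe 1, with 8.30 net units in ventral saline RNA, had a ventral log2 ratio of 3.33. Its lateral signal was at least 1.84-fold higher with OBP-801, a bound because of the detector ceiling.

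The other members past 2-fold in the ventral prostate were probes 4, 5, 25, 42, 51, 79, 96 and 102. Probe 79 was the brightest of these, with 1972 and 9145 net units in ventral saline and OBP-801 RNA and 4262 and 16057 units in lateral saline and OBP-801 RNA. Its log2 ratios were 1.09 in the ventral lobe and 0.81 in the lateral lobe. Probe 25 had 254 and 1387 units in the ventral lobe and 1127 and 4361 units in the lateral lobe, with log2 ratios of 1.25 and 0.90. For probes 25 and 79 the ratios of the lobes were within 1.5-fold of each other. For probe 8, also bright, the ventral log2 ratio was 0.83 and the lateral one -0.16.

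**Figure D3:**
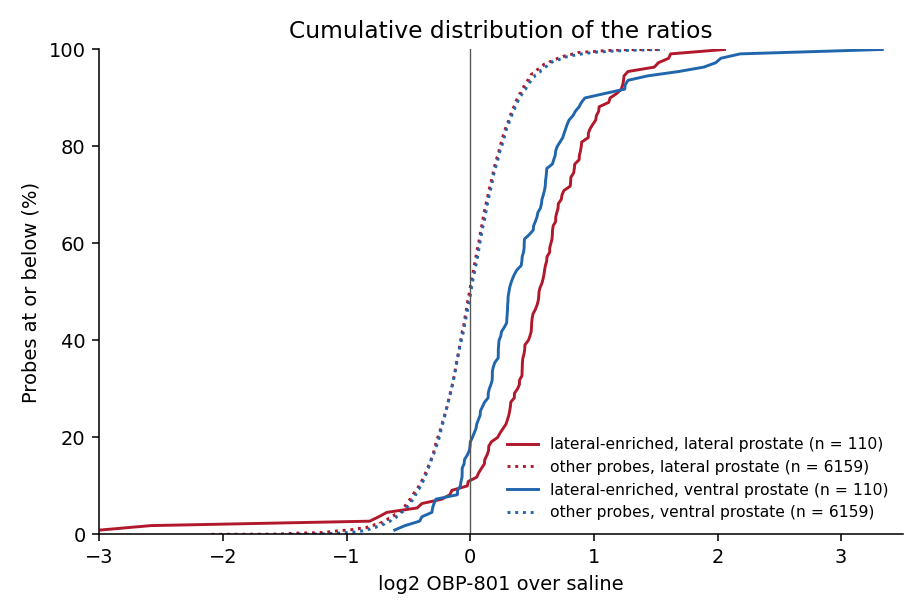
Percentage of probes at or below each log2 ratio of OBP-801 over saline. Solid lines show the 110 lateral-enriched probes and dotted lines the other 6159 probes with at least 100 net units in lateral saline RNA, in the lateral (red) and the ventral (blue) prostate. The members' curves lie to the right of the other probes' curves over most of the range, with medians of 0.56 and 0.32.

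In both lobes the ratio reached 2-fold for 6 members, or 5.45% of the members, against 0.188% of the 15465 probes detected on both arrays and 0.399% of the 6269 probes with at least 100 net units in lateral saline RNA. A further 11 reached 2-fold in the lateral prostate alone, against 0.287% of probes that bright, and 5 (4.55%) in the ventral prostate alone, against 0.383%. Both ratios were above 0 for 86 members (78.2%), against 43.5% of probes that bright, and below 0 for 8 (7.27%), against 42.4%. The signs differed for 16 members (14.5%), close to the 14.1% of probes that bright. Both ratios use the saline signals that chose the members. Probe 2 was among the 6, with a lateral log2 ratio of 1.52. Probe 42 had 221 and 1245 net units in ventral saline and OBP-801 RNA and 648 and 3156 units in lateral saline and OBP-801 RNA, with log2 ratios of 1.28 and 1.22. Probe 102, just inside the rule, had 410 and 3470 net units in ventral saline and OBP-801 RNA and 796 and 4692 units in lateral saline and OBP-801 RNA, with log2 ratios of 1.89 and 1.49. Probe 96 was dimmer, with 61.6 and 418 units in the ventral lobe and 122 and 568 units in the lateral lobe. In these 3 probes the ventral ratio was the higher, which is another view of their smaller lobe difference with OBP-801 than with saline.

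Among the members past 2-fold in the lateral prostate alone, probe 69 had 481 and 1604 net units in ventral saline and OBP-801 RNA and 1148 and 5685 units in lateral saline and OBP-801 RNA. Its log2 ratios were 0.62 in the ventral lobe and 1.24 in the lateral lobe. Probe 73 had 606 and 1953 units in the ventral lobe and 1378 and 6308 units in the lateral lobe, with log2 ratios of 0.58 and 1.13. For both, the same signals gave a wider lateral excess with OBP-801, at log2 values of 2.00 and 1.87 against 1.33 and 1.26 with saline.

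The lateral ratio exceeded the ventral ratio for 72 members and was below it for 38, with a median log2 difference of 0.14. The median was 0.00 over all probes detected on both arrays, of which 49.5% had the higher ratio in the lateral prostate. This contrast uses the same 4 signals as the OBP-801 lobe difference less the saline one, with the offset and loess added. Without those steps, the OBP-801 lobe difference was the larger for 64 members and not for 46. The direction depended on the processing for some members. For probe 11 the contrast was 0.33 with the offset and loess and -0.37 without. For 91 members (82.7%) the 2 ratios were within 1.5-fold of each other, a smaller share than the 98.9% of probes with at least 100 net units in lateral saline RNA. The difference of the ratios was at least 2-fold towards the lateral prostate for 3 members, against 0.0582% of probes detected on both arrays. It was at least 2-fold towards the ventral prostate for 3, against 0.0970%. Those shares include dimmer probes, whose ratios the offset pulls towards 0, and none was taken at the members' brightness. The 3 members with the higher ventral ratio were probes 1, 4 and 7. For probe 1 the lateral ratio is only a lower bound, since its lateral OBP-801 signal was at the detector ceiling. A dye preference that a probe shows on both arrays cancels in this difference, apart from the effect of the offset. The 3 members with the higher lateral ratio were probes 15, 17 and 31. Probe 15 had 55.3 and 124 net units in ventral saline and OBP-801 RNA but 568 and 3656 units in lateral saline and OBP-801 RNA. Probe 31 had 85.8 and 112 units in the ventral lobe and 291 and 1248 units in the lateral lobe. Its log2 ratios were -0.39 for the ventral lobe and 1.02 for the lateral lobe.

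**Figure D4:**
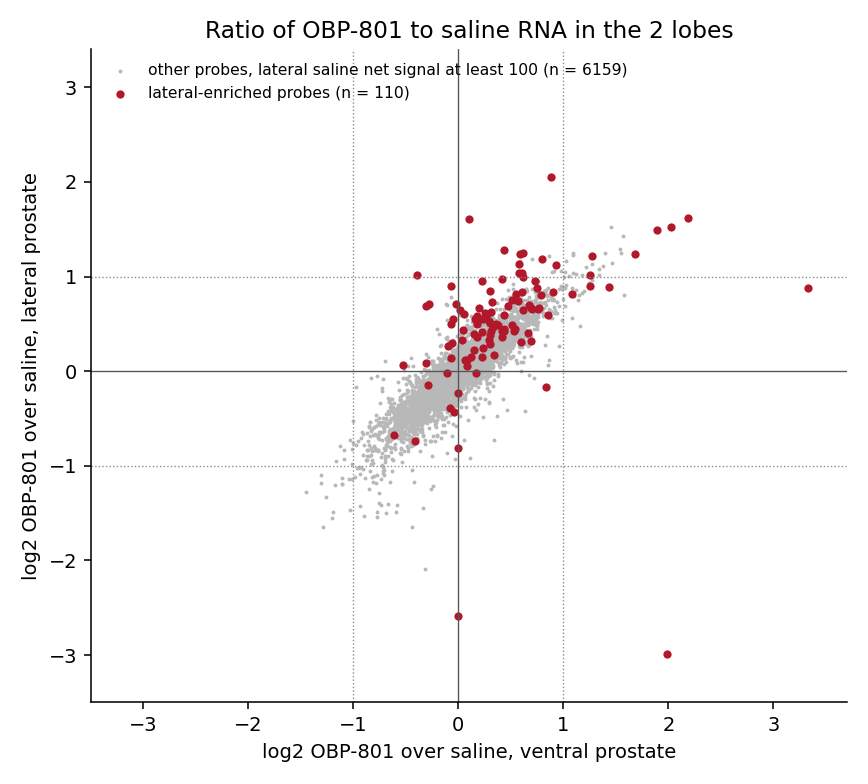
The log2 ratio of OBP-801 over saline in ventral (x) and lateral (y) prostate for the 110 members (red) and the other 6159 probes with at least 100 net units in lateral saline RNA (grey). Dotted lines mark 2-fold. Most members lie to the upper right of the origin, and 2 lie far below the others.

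ENSRNOG00000013768 (probe 17) had the highest lateral ratio of the 108 members that were not at the detector ceiling. Its net signal was 28.9 units in ventral saline, 177 in ventral OBP-801, 264 in lateral saline and 2465 in lateral OBP-801 RNA. It was higher with OBP-801 in both lobes, by 4.16-fold in the lateral and 1.84-fold in the ventral prostate on the scale with the offset. Its lobe difference was 3.27 with saline and 3.98 with OBP-801 on the log2 scale. The ventral log2 ratio was 0.88, and the authors' deposited table lists 1.53 for it, past 2-fold.

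ENSRNOG00000005743 (probe 51) had 222 and 2449 net units in ventral saline and OBP-801 RNA, and 608 and 3957 units in lateral saline and OBP-801 RNA. Here the ventral prostate had the higher ratio, 4.54-fold against 3.08-fold in the lateral prostate. The same signals put the lobes closer to each other with OBP-801, with a log2 difference of 0.87 against 1.53 in saline RNA.

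ENSRNOG00000004320 (probe 4) had 32.8 net units in ventral saline and 529 in ventral OBP-801 RNA, against 2931 in lateral saline and 680 in lateral OBP-801 RNA. The 2 lobes thus went in opposite directions, a pattern that choosing by low ventral and high lateral saline signal favours. The log2 ratio was 1.99 for the ventral lobe and -2.99 for the lateral lobe, and the latter is a 7.93-fold lower level. Before centring between arrays, its ventral net signal was 77.8% of the lateral one in OBP-801 RNA and 1.12% in saline RNA. With centring, the lateral signal was 1.45-fold the ventral one in OBP-801 RNA and 94.3-fold in saline RNA. Without the offset and loess, the ventral log2 ratio was 2.95.

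ENSRNOG00000009768 (probe 7) had 336 net units in lateral saline and 47.8 in lateral OBP-801 RNA, a 5.99-fold lower level. In the ventral prostate it was dim in both RNAs, with 10.9 units in saline and 22.4 in OBP-801 RNA, and its log2 ratio was -0.01. The lateral log2 ratio was -2.58, and -3.78 without the offset and loess. The next lowest lateral ratio, that of probe 24, was -0.81, so these 2 probes stood well apart from the other members.

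**Figure D5:**
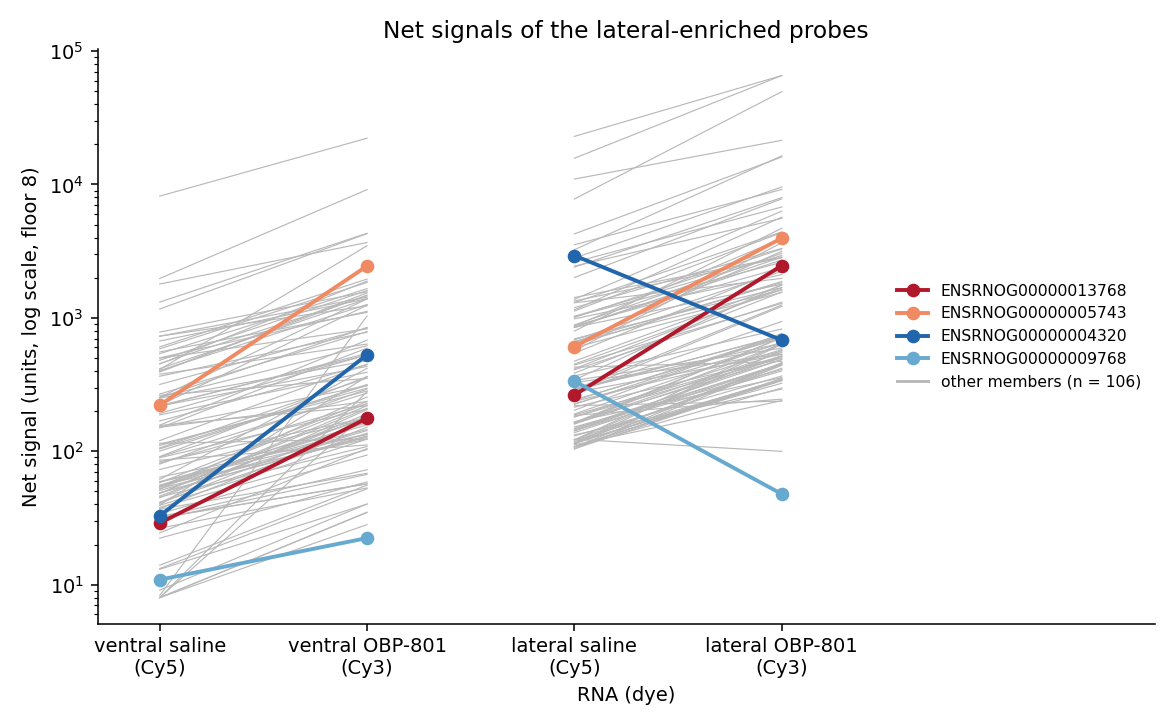
Net signal (units, log axis, signals under 8 drawn at 8) of the 110 members in the 4 RNAs, with a line from saline to OBP-801 within each lobe. The dyes differ in overall brightness, so most lines slope upwards. The 2 named probes with the highest lateral ratios climb more steeply than most, and ENSRNOG00000004320 and ENSRNOG00000009768 run downwards in the lateral lobe.

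The same rule with the lobes exchanged gave 125 ventral-enriched probes. Of these, 107 (85.6%) were also at least 2-fold higher in the ventral lobe in OBP-801 RNA. Among the 121 with at least 100 net units in ventral OBP-801 RNA the count was 104 (86.0%), against 3.99% of the 8391 probes that bright. Their median log2 ratio of OBP-801 to saline was -0.29 in both the ventral and the lateral prostate. It was above 0 for 27 of 125 in the ventral and 24 of 125 in the lateral prostate, against 90 and 98 of the 110 lateral-enriched members. Over the 6479 probes with at least 100 net units in ventral saline RNA these shares were 49.9% and 48.5%. The medians of the 2 groups thus lay on opposite sides of 0 in each lobe, and this contrast was not tested. Both groups were chosen by the saline signals that these ratios share. In the ventral prostate that choice favours the direction seen, and in the lateral prostate the opposite direction.

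Position on the array moved with the lobe difference. The array has 24 blocks, and the median saline lobe difference of probes with at least 30 net units in all channels ran from -0.15 to 0.23 between blocks on the log2 scale. For the OBP-801 difference the block medians ran from -0.10 to 0.17, and for the ratios from -0.05 to 0.08 in the lateral and -0.09 to 0.14 in the ventral prostate. With the differences centred within each block, a setting chosen after the data were seen, 103 probes met the rule, 97 of them members. By that centring 97 members were at least 2-fold higher in lateral OBP-801 RNA, 16 had a lateral ratio at least 2-fold higher and 10 a ventral one. The scanner marked 1 member, probe 23, on the ventral array at some gain, and it was kept.

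Membership near the threshold was a matter of small differences. The last 3 members had saline differences of 1.01, 1.01 and 1.00, and the first 3 probes outside had 0.99, 0.99 and 0.99, and in OBP-801 RNA these 3 had differences of 1.13, 1.01 and 1.05. Between 1 and 1.1 lay 18 members, and between 0.9 and 1 lay 21 probes of the same minimum brightness, at a technical SD of 0.14.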

How the data were processed

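Total RNA was amplified with amino allyl labelling and coupled to Cy5 or Cy3, per the labels' protocols. The deposited scanner files hold intensity values as spot and local background medians, reconciled over 3 scanner gains by least squares per the file headers, without background subtraction or normalization. The image software is not stated in the sources used here. The authors' deposited value table holds log2 ratios, each array's centred at a median of 0. They matched Cy3 over Cy5 of the scanner signals less the mean of the blanks (5% trimmed from either end), shifted down by 1.08 (ventral) and 1.00 (lateral). The remainder varied with an SD of 1.7e-05 and 2.1e-05 respectively.

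Net signals and lobe differences were computed in Python 3.11.15 with pandas 2.3.3. Ratios used limma 3.58.1 in R 4.3.3 (normexp, offset 50, local background left out, loess with control spots at weight 0). A probe was detected on an array where at least 1 channel exceeded the blank mean by 2 blank SDs. The blanks numbered 5808 spots. The calculations were checked on simulated data. The members and the gene lists, which could not be evaluated without symbols, were chosen with earlier results of these data known. Named probes were the 2 members with the highest and the 2 with the lowest lateral ratio, because no symbol could be matched. Other probes described by rank were chosen after their values were seen. Other background corrections, centrings, floors, filters and thresholds were tried.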

Additional observations from a re-analysis of the deposited data

Results flagged for a closer look

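ENSRNOG00000004320 was the only one of the 110 members whose ratio of OBP-801 to saline was at least 2-fold in opposite directions in the lobes, with log2 ratios of 1.99 (ventral) and -2.99 (lateral). Choosing members by a low ventral and a high lateral saline signal favours this pattern. Its share over all probes was not counted. This difference between lobes was not tested, for want of replicate arrays.

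Spots outside the gene probes also met the rule. Of 521 quality control spots, 59 had at least 100 net units in lateral saline RNA. Of these 59, 4 were at least 2-fold brighter there than in ventral saline RNA, against 110 of 6269 gene probes that bright (1.75%). The lobe differences of these 4 spots ran from 1.35 to 1.56 on the log2 scale. They had 49.7 to 129 net units in the ventral and 123 to 329 in the lateral lobe. None of the 5808 blank spots, the 809 spots described as having no probe or the other control spots met it.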

How the results depend on the processing

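No paired analysis was possible because a lobe is covered by 1 array. Block centring, and every alternative for the medians, were chosen after the data were seen. Counts of members are at 2-fold unless another threshold is given. The 17 members higher with OBP-801 in the lateral prostate became 26 with blank subtraction and 60 with median centring. They became 25 in the authors' deposited table, 53 at 1.5-fold and 3 at 3-fold. The 2 lower ones became 5 at 1.5-fold. In the ventral prostate the 11 higher became 24 with blank subtraction, 32 with median centring and 19 in the authors' deposited table. They became 34 at 1.5-fold and 6 at 3-fold, and the 0 lower became 1 at 1.5-fold. For the ventral prostate the deposited table lists 106 of the 110 members, without probes 2 and 3, which were among the 11. Its values for this lobe, and for contrasts of the lobes, rest on those 106. Members with the lateral ratio at least 2-fold below the ventral one (3) became 7 with blank subtraction. They became 6 in the authors' deposited table and 5 at 1.5-fold. Those with it at least 2-fold above (3) became 5 with blank subtraction and 8 with median centring. They became 5 in the authors' deposited table, 14 at 1.5-fold, 0 at 3-fold and 5 with block centring. The 99 members higher in lateral OBP-801 RNA became 59 at 3-fold, and 84 to 109 otherwise. The 110 members became 70 with a minimum of 200 units, and 80 probes, all of them members, with Aquantile. The ventral median excess of 0.31 became 0.53 with blank subtraction, 0.13 with median centring and 0.49 in the authors' deposited table. The lateral excess of 0.56 ran from 0.56 to 0.68. Median centring placed the median of probes with at least 100 net units at 0.49 (lateral) and 0.53 (ventral), so its counts include that shift. Of 24 values of the 4 named probes under the alternatives, 6 stayed within 0.12 of the main value and 18 did not. That limit is the largest SD of a positive control's ratio, found on the ventral array. On the lateral array these SDs were 0.06 and 0.08. No count, median or named-probe value reversed under these alternatives, although the contrast of the lobes did for probe 11. Apart from changes set by the threshold or by the smaller set of probes, the cause was not tested. The number of arrays limits the precision.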

Other observations

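Members were unevenly spread over the rows of the array blocks. Among probes with at least 100 net units in lateral saline RNA, 4 of 742 in row 6 were members (0.539%), against 28 of 959 in row 7 (2.92%) and 21 of 906 in row 5 (2.32%). The median saline lobe difference of these probes was 0.05 in row 6, 0.01 in row 7 and 0.01 in row 5. Between blocks the members ran from 0 of 241 such probes in block 6 to 11 of 283 in block 7 (3.89%). Members neighboured each other along a row in 1 pair.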
